A study of Mus musculus with 30 samples.

Results

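The comparison described here sets mouse neurospheres grown with epidermal growth factor (EGF) against neurospheres grown with the A homodimer of platelet-derived growth factor (PDGF-AA), across all genes of the arrays. Its members were taken by title: the 6 RNA samples whose titles name EGF and the 6 whose titles name PDGF, which are 12 of the 15 RNA samples of the series and 24 of its 30 arrays. The source of the EGF neurospheres was the ganglionic eminences, medial and lateral, of embryonic day 14, and they were kept because they formed in response to EGF. The PDGF-AA neurospheres came from the anterior entopeduncular area at the same age and were kept because they formed in response to PDGF-AA, given at 100 ng/ml. Both groups had 7 days in DMEM:F12 medium with N2 and 2% B27, and both RNA preparations are labelled 100 ng/ul. For the EGF samples, too, the labelled growth medium holds PDGF-AA at 100 ng/ml, while their titles, descriptions and purification step name EGF, and they are treated here as EGF samples. Factor and brain region differ together, so they cannot be told apart in any result below. The labels used here give neither the strain, the sex and the number of embryos nor whether replicates were separate cultures, so each p-value refers to the spread over the samples at hand, which may be technical.

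Neurospheres are floating clusters of dividing neural precursors. EGF acts through the receptor tyrosine kinase Egfr, which keeps late embryonic stem cells and glial precursors dividing, and PDGF-AA acts through Pdgfra, the receptor that marks oligodendrocyte progenitors in the forebrain. Both receptors feed the Ras and ERK kinase cascade. The ganglionic eminences give rise to striatal neurons and cortical interneurons, and the entopeduncular area at their ventral edge is a known source of the first oligodendrocyte progenitors of the forebrain.

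The 12 samples were each measured on a pair of arrays with different genes, as MAS5 signals that the authors had scaled to a common level. A gene was tested when its probe set had a signal no lower than the array's median in 6 or more samples, which left 11739 genes, each represented by 1 probe set. Differences are log2 values, EGF minus PDGF-AA, with their standard error, and all p-values come from limma. The precursor markers Sox2, Nes, Vim, Fabp7, Olig1 and Olig2 passed this filter. Gfap and Aqp4 (astrocytes), Mog (mature myelin), Ptprc, Aif1, Cx3cr1 and Tyrobp (microglia), Pecam1 and Cdh5 (endothelium) and Col1a1 (meninges) stayed under it. Other markers of such cells passed: Csf1r of microglia (median 1235 with EGF, 1230 with PDGF-AA), Kdr of endothelium (1146 and 1331) and Folr1 of choroid plexus (718 and 811). The astrocyte markers Gja1, Slc1a3 and Aldh1l1 and the myelin markers Mbp and Mag passed as well. Among lists for cell types not sought here, the filter passed 4 of 20 genes for microglia, 6 of 19 for endothelium and pericytes and 2 of 16 for meninges. From the times in the headers of the array files, with a new group after a gap of over 60 minutes, 3 runs of the fluidics station were inferred, each with 2 EGF and 2 PDGF-AA samples. Values within these inferred fluidics groups are given beside the pooled ones. The 3' to 5' ratio of the Actb and Gapdh control probe sets, a measure of RNA integrity, differed by −0.22 to −0.02 on the log2 scale over 4 ratios (exact permutation test, two-sided, adjusted p from 0.421 to 0.913). The group means of the log2 ratio were 2.89 to 3.11 for Actb and 3.66 to 3.89 for Gapdh. Signal was thus much stronger at the 3' end in both groups, so similar ratios do not mean intact RNA. Without PDGF-AA replicate 1, the lowest of its group, the Gapdh ratio of the second chip differed by −0.22 (exact permutation p = 0.00866).

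EGF and PDGF-AA neurospheres formed separate groups. The first principal component, with 31.4% of the variance, held all EGF samples on one side and all PDGF-AA samples on the other. Across genes, pairs of samples correlated at 0.884 to 0.911 among EGF samples and at 0.885 to 0.922 among PDGF-AA samples, against 0.823 to 0.873 between the groups, so no pair from different groups was as alike as the least alike pair of 1 group. Of the 11739 genes, 1019 (8.68%) were higher and 1060 (9.03%) lower with EGF at an adjusted p under 0.05, together 2079 (17.7%). The median difference was 0.80 among the higher genes and −0.75 among the lower ones, beside −0.04 over all genes tested. At least 2-fold differences were found for 664 genes (5.66%), 351 higher and 313 lower. The largest differences lay on the EGF side, where 82 genes reached 4-fold, against 30 among the lower genes. The samples of the groups did not overlap for 620 genes (5.28%) with EGF above and for 558 genes (4.75%) with EGF below, and 1141 of these genes passed the test.

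**Figure D1:**
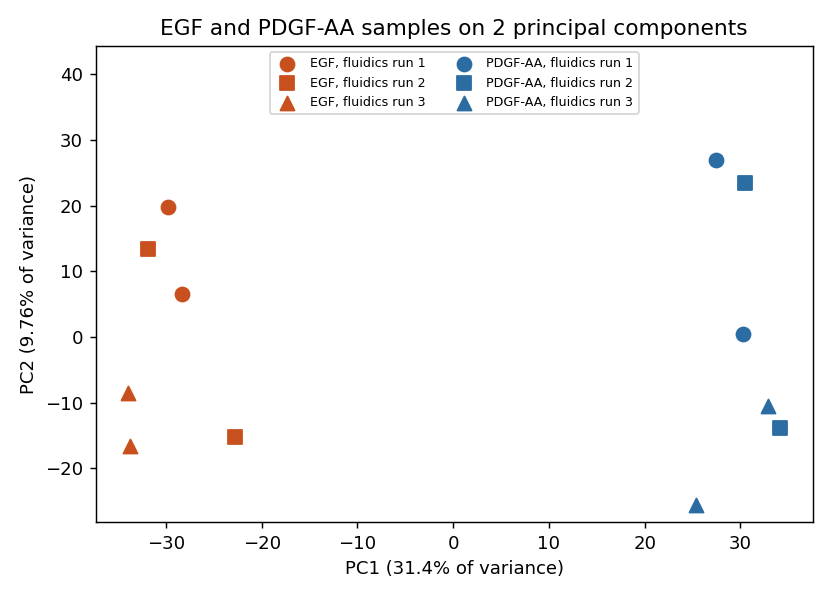
Each point is 1 RNA sample, placed by its score on the first principal component (x axis, 31.4% of the variance) and on the second (y axis, 9.76%), with orange for EGF, blue for PDGF-AA and the point's shape for the fluidics run. The 6 EGF samples lie left of 0 and the 6 PDGF-AA samples right of it. Samples of the same run do not lie together along the first component. Along the second, all samples of run 1 lie above 0 and all of run 3 below it.

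The largest increases with EGF were those of Mlc1, Car3 and Ctsc. Mlc1, a membrane protein of astrocyte end feet, had signals of 4096 to 6146 (median 5118) with EGF, against 24.0 to 66.6 (median 36.7) with PDGF-AA (5.78 ± 0.20, adjusted p = 9.86e-11). All its PDGF-AA values lay near 52.8, the pseudocount used on this chip for the log scale, so the size of this difference, though not its direction, depends on that constant. Igfbp2, which binds insulin-like growth factors, had 18824 to 31943 (median 23275) with EGF, against 860.0 to 1584 (median 1361) with PDGF-AA (4.14 ± 0.16, adjusted p = 5.86e-10). Its relative Igfbp4 had 24611 to 39634 (median 30755) with EGF, against 1266 to 3817 (median 3117) with PDGF-AA (3.53 ± 0.23, adjusted p = 1.08e-07). Both binding proteins were thus separated by a wide gap, and within the fluidics groups their differences were 3.74 to 4.55 and 3.04 to 4.07. Gja1, connexin 43 of astrocyte gap junctions, had 6814 to 12782 (median 8358) with EGF, against 212 to 988 (median 388) with PDGF-AA (4.28 ± 0.29, adjusted p = 1.53e-07). Ctsc, a lysosomal protease, had 11469 to 19607 (median 16570.3) with EGF, against 404 to 1031 (median 538) with PDGF-AA (4.67 ± 0.21, adjusted p = 1.30e-09). Another probe set of Ctsc gave only 0.14. Pbxip1, a protein that binds Pbx homeodomain factors, had 9668 to 14759 (median 11610.2) with EGF, against 829.9 to 1044 (median 908) with PDGF-AA (3.55 ± 0.12, adjusted p = 9.86e-11). The 6 EGF samples of each of these 6 genes stood above all 6 PDGF-AA samples, as the naming rule requires. The other large increases were those of Car3, a carbonic anhydrase (5.13), the lipoprotein-associated phospholipase Pla2g7 (4.54), the troponin Tnnt1 (4.45), the phospholipase Plaat3 (4.27), the galectin Lgals1 (4.16), the secreted protease Htra1 (4.0), the laminin receptor chain Itga6 (4.0), the annexin Anxa5 (3.93), Lrig1, which lowers the level of Egfr protein (3.90), the phospholipase Plcd4 (3.66), the small heat shock protein Cryab (3.46), Mt3, the brain metallothionein (3.44), the selenium carrier Selenop (3.41) and the glutathione transferase Gsta4 (3.39). They were followed by genes of no list: Ech1 (3.29), Ccbe1 (3.29), Fbln2 (3.19), Ppic (3.04), Vav3 (2.95), Ramp1 (2.93), Epb41l4a (2.91), Pon2 (2.90), Ddit4l (2.80) and Lxn (2.65). Of these, Ech1 is an enzyme of fatty acid oxidation and Ramp1 a subunit of the calcitonin gene-related peptide receptor.

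The largest decreases with EGF were those of AW551984, Pdgfra and Hapln1. Pdgfra had signals of 729 to 1306 (median 929) with EGF, against 9476 to 12411 (median 11058) with PDGF-AA (−3.44 ± 0.14, adjusted p = 5.86e-10). Sox10, a transcription factor that oligodendrocyte lineage cells keep throughout life, had 503 to 1741 (median 988) with EGF, against 6696 to 10312 (median 7980.0) with PDGF-AA (−2.96 ± 0.23, adjusted p = 6.09e-07). Another probe set of Sox10 gave −0.71. Cntn1, an adhesion protein of axons and oligodendrocyte precursors, had 4922 to 7714 (median 5481) with EGF, against 22436 to 40210.2 (median 27265) with PDGF-AA (−2.24 ± 0.16, adjusted p = 1.99e-07). The samples of the 3 genes did not overlap, as the naming rule requires, and within the fluidics groups the difference of Pdgfra was −3.83 to −3.19. In RNA from whole cultures, fewer cells that carry a transcript and less of it in each cell cannot be told apart, here and in all results below. Hapln1, which links hyaluronan to proteoglycans, had 108 to 736 (median 354) with EGF, against 3270.1 to 6173 (median 4185) with PDGF-AA (−3.32 ± 0.31, adjusted p = 3.54e-06). Vgf, the precursor of secreted neuropeptides, had 377 to 2088 (median 565) with EGF, against 2796 to 9282 (median 5884) with PDGF-AA (−2.87 ± 0.36, adjusted p = 4.51e-05). The highest EGF value of Vgf, in replicate 5, stood apart from the other 5, which reached at most 574. Tmem130, a membrane protein, had 13226 to 34368 (median 27334) with EGF, against 89656 to 172503 (median 140662) with PDGF-AA (−2.52 ± 0.24, adjusted p = 4.43e-06). Its lowest PDGF-AA sample stood above its highest EGF sample by more than 2-fold. The other large decreases were those of AW551984 (−3.45), the zinc finger factor Zic1 (−3.22), the membrane glycoprotein Omg (−2.78), Brinp3 (−2.57), Capn6 (−2.45), Jakmip1 (−2.41), Moxd1 (−2.31), the actin-severing protein Gsn (−2.29), the collagen chain Col9a1 (−2.19), Pstpip2 (−2.18), Nrsn1 (−2.17), Scrg1 (−2.14) and the progenitor matrix genes Matn4 (−2.14) and Cspg4, the NG2 proteoglycan (−2.14). The next genes of no list were Prkcq (−2.06), Vat1l (−2.06), Tmem255a (−2.05), Dpp10 (−2.02), Lnx1 (−2.0), Col19a1 (−2.0), Prkar1b (−1.94), Dmrtb1 (−1.91), Tub (−1.91) and Rnf19b (−1.89).

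**Figure D2:**
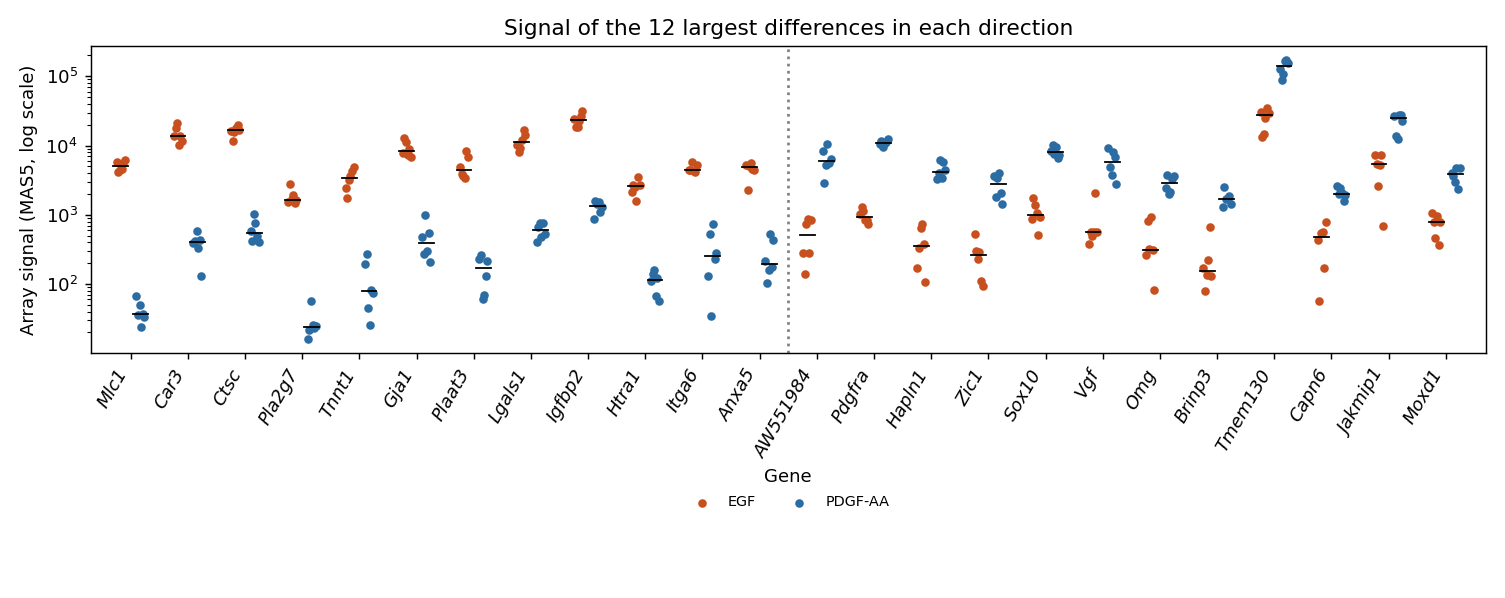
Signal of each RNA sample (points, log axis) and its median (black lines) for the 12 largest increases (left of the dotted line) and the 12 largest decreases (right), EGF in orange and PDGF-AA in blue beside it. The groups do not overlap for any of these genes, which were chosen so, and the weakest groups, such as the PDGF-AA samples of Mlc1 and Pla2g7 (highest 66.6 and 56.5), reach down to the pseudocount.

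The astrocyte and radial glia lists held more higher than lower genes with EGF, and the oligodendrocyte progenitor and neuronal lists more lower than higher ones. Of the 22 astrocyte genes that passed the filter (30 listed), 14 were higher with EGF, 1 was lower and 7 did not pass the test, with a median of 1.10 (0.98 to 1.38 within the fluidics groups). Beside the genes above, the folate enzyme Aldh1l1 had 3843 to 8427 (median 5628) with EGF, against 485 to 696 (median 543) with PDGF-AA (3.14 ± 0.19, adjusted p = 6.73e-08). The glutamate transporter Slc1a3 (2.42 ± 0.16, adjusted p = 9.86e-08) and the bicarbonate cotransporter Slc4a4 (3.13 ± 0.22, adjusted p = 1.99e-07) rose as well. The member that fell was the calcium-binding protein S100b, which had 249.9 to 622 (median 490.2) with EGF, against 983 to 1668 (median 1118) with PDGF-AA (−1.31 ± 0.23, adjusted p = 0.000891). Clu and Ndrg2, also astrocyte genes, gave −0.41 ± 0.19, adjusted p = 0.158 and 0.44 ± 0.22, adjusted p = 0.217. Ndrg2 passed as higher with the replicate number as a block (adjusted p = 0.0292). Of 28 measured genes of radial glia and stem cells (29 listed), 12 were higher and 1 lower, with a median of 0.38. The RFX transcription factor Rfx4 had 21631 to 34742 (median 26176) with EGF, against 4144 to 6958 (median 5126) with PDGF-AA (2.34 ± 0.15, adjusted p = 7.61e-08). The stem cell surface protein Prom1 (2.10), the matrix protein Tnc (1.47) and the intermediate filament Nes (0.67) rose with it. Sox2, Fabp7 and Vim, which mark neural precursors in general, did not pass the test (−0.31 ± 0.11, 0.38 ± 0.13 and 0.08 ± 0.13). Sox2 passed as lower without EGF replicate 2 or 3 (adjusted p = 0.0275 and 0.0493), which made 2 lower radial glia genes. It also passed with quantile normalization, each chip tested alone or a filter at the 75th percentile (adjusted p from 0.0246 to 0.0491). Fabp7 passed as higher without EGF replicate 4 or PDGF-AA replicate 2 (adjusted p = 0.00617 and 0.0385). The same 3 settings, array weights, the replicate number as a block and the fluidics group as a block made Fabp7 pass too (adjusted p from 0.0127 to 0.0426).

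Of 22 measured oligodendrocyte progenitor genes (29 listed), 14 were lower with EGF and 0 higher, with a median of −0.90 (−1.0 to −0.80 within the fluidics groups). The receptor Gpr17, which marks committed progenitors, had 3621 to 6941 (median 5211) with EGF, against 13223 to 23354 (median 17175) with PDGF-AA (−1.77 ± 0.17, adjusted p = 5.80e-06). The decreases reached from Olig1 (−0.50 ± 0.11, adjusted p = 0.00384), whose samples overlapped, to Pdgfra. Olig2, the partner of Olig1 in specifying this lineage, gave 0.16 ± 0.15, adjusted p = 0.536 and did not pass the test. Of 15 genes of newly formed oligodendrocytes (20 listed), 6 were lower and 0 higher (median −0.49). Bcas1, a marker of early myelinating cells, had 47438 to 77065 (median 63411) with EGF, against 171226 to 279568 (median 201201) with PDGF-AA (−1.75 ± 0.15, adjusted p = 1.24e-06), and the galactolipid enzyme Ugt8a gave −1.64 ± 0.22, adjusted p = 7.59e-05. Myelin genes did not follow one direction: of 12 measured (20 listed), 3 were higher, 1 was lower and 8 did not pass. The higher ones were the carbonic anhydrase Car2 (2.82 ± 0.24, adjusted p = 1.26e-06), Mobp (3.36 ± 0.34, adjusted p = 7.40e-06) and Mag (0.74 ± 0.21, adjusted p = 0.0248), and the lower one was Omg. Mag lost its call without EGF replicate 1 or 2 (adjusted p up to 0.0548). Mbp, the major basic protein of myelin, had 21399.5 to 35002 (median 24136) with EGF, against 13848 to 33257 (median 20673) with PDGF-AA and did not pass (0.27 ± 0.17, adjusted p = 0.339). Its samples overlapped over most of their range. Without EGF replicate 2 or PDGF-AA replicate 1, 2 myelin genes were lower.

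Many neuronal genes were lower with EGF. Of 32 measured genes of immature neurons (40 listed), 17 were lower and 0 higher (median −0.63, −0.74 to −0.66 within the fluidics groups). The RNA-binding protein Elavl4 had 839.6 to 1183 (median 1014) with EGF, against 2466 to 4311 (median 2762) with PDGF-AA (−1.55 ± 0.16, adjusted p = 9.87e-06). Stmn3 and Stmn2, which regulate microtubules, gave −1.38 ± 0.16 and −1.40 ± 0.26, and Gap43 of the growth cone −1.27 ± 0.18. Tubb3, the neuronal tubulin, gave −0.96 ± 0.27, adjusted p = 0.021. The neuronal marker Map2 did not follow, with overlapping samples and medians of 967 with EGF and 889 with PDGF-AA. The neuronal marker Rbfox3 stayed under the filter. Dcx, a microtubule protein of migrating neurons, did not pass (−0.79 ± 0.28, adjusted p = 0.0642), but passed as lower without EGF replicate 4 or PDGF-AA replicate 2 (adjusted p = 0.00533 and 0.018). It also passed with array weights, each chip tested alone, a filter at the 75th percentile or the replicate number as a block (adjusted p from 0.00952 to 0.0412). Of 27 genes of mature neurons and synapses (36 listed), 16 were lower and 2 higher (median −0.72). The lower ones included the tau gene Mapt (−1.46 ± 0.18), the vesicle GTPase Rab3a (−1.06 ± 0.17), the membrane fusion protein Stx1a (−1.11 ± 0.19) and the calcium sensor Syt1 (−0.89 ± 0.17). The 2 that rose were Thy1 (0.97 ± 0.20, adjusted p = 0.00274) and the complexin Cplx2 (0.76 ± 0.16, adjusted p = 0.0035), whose relative Cplx1 fell (−0.74 ± 0.14, adjusted p = 0.00146). Among EGF samples, replicate 4 was the highest for Dcx, Mapt and Stx1a. Without it 17 of 32 immature neuron genes (median −0.69) and 16 of 27 mature neuron genes (median −0.75) were lower, of which 16 and 16 were also lower with all samples.

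Transmitter receptor genes and voltage-gated sodium and calcium channel genes were lower in part. Ionotropic glutamate receptors were lower in 4 of 11 (Grid1 −1.39, Grik1 −1.70, Gria3 −1.40 and Gria2 −1.05), GABA-A, glycine and nicotinic receptors in 5 of 15 (led by Gabra3, −1.43), and neither list had a higher member. The receptor count of 5 was 2 without EGF replicate 5 or PDGF-AA replicate 1, and 3 without EGF replicate 2, 3 or 6 or PDGF-AA replicate 3, 4 or 5, as it was with median centring, no filter, all 15 samples in the fit or the fluidics group as a block, and 1 member was higher without EGF replicate 1. Among voltage-gated sodium and calcium channels, 5 of 19 were lower, with Cacng4 (−1.25) and Cacna2d2 (−2.16) among them, and Cacna2d3 was higher (0.81). Potassium channels were higher in 5 and lower in 2 of 20 (lower in 1 without PDGF-AA replicate 1, 2 or 4). The lower count was near the share of 9.03% over all genes tested. Kcnj10, the potassium channel of astrocytes and oligodendrocytes, had 2243 to 3608 (median 2826) with EGF, against 1239 to 1634 (median 1565) with PDGF-AA (0.90 ± 0.13, adjusted p = 0.000229), and Kcna2 gave 1.04 ± 0.14.

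The proteins of dense-core granules, which store and release peptides, were in large part lower with EGF. Of 20 measured genes (27 listed), 13 were lower and 0 higher, with a median of −0.80 (−1.09 to −0.76 within the fluidics groups). The 10 measured genes grouped here as granins and granule processing proteins were all lower. This grouping was made with the results known, so its full count follows from the choice. The listed genes outside it and outside the peptide precursors did not pass. Chgb, secretogranin 1, had 1409.8 to 2366 (median 2018) with EGF, against 4587 to 9762 (median 7144) with PDGF-AA (−1.81 ± 0.17, adjusted p = 3.66e-06). Scg2, secretogranin 2, had 804 to 1259 (median 1096) with EGF, against 2261 to 3743 (median 3270.2) with PDGF-AA (−1.47 ± 0.16, adjusted p = 1.61e-05). Chga, the granin that starts granule formation, had 736 to 1509 (median 1035) with EGF, against 1851 to 2987 (median 2875) with PDGF-AA (−1.32 ± 0.18, adjusted p = 0.000126). The groups did not overlap for any of the 3. Among peptide precursors, Pnoc (−2.04 ± 0.42, adjusted p = 0.0033), Tac1 (−1.69 ± 0.32, adjusted p = 0.00161) and Nts (−0.76 ± 0.23, adjusted p = 0.0291) fell, and Npy, Gal, Sst and Penk had differences of −0.59 to −0.37 that did not pass. Nts lost its call without EGF replicate 2 or 3 or PDGF-AA replicate 1, 3, 4 or 5 (adjusted p up to 0.0712) and with no filter or all 15 samples in the fit (adjusted p up to 0.0617).

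**Figure D3:**
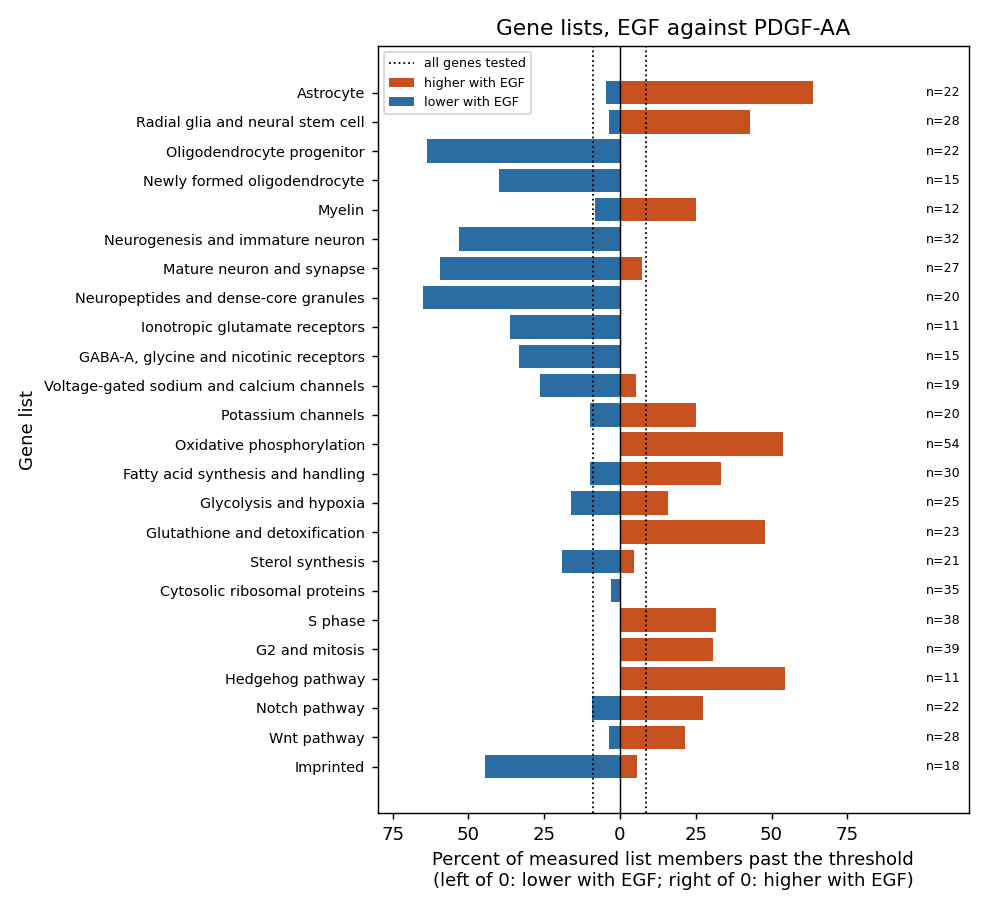
Share of the measured members of 24 gene lists that were higher with EGF (orange, right of 0) or lower with EGF (blue, left of 0), in percent, with the number of measured members at the right edge and dotted lines at the shares over all genes tested (8.68% and 9.03%). Lists of oligodendrocyte progenitors, neurons and dense-core granules extend to the left, and those of astrocytes, oxidative phosphorylation, glutathione and the Hedgehog pathway to the right.

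Many genes of mitochondrial energy metabolism were higher with EGF. Of 54 measured subunits of the respiratory chain and ATP synthase (57 listed), 29 were higher and 0 lower, with a median of 0.37 (0.26 to 0.50 within the fluidics groups) beside −0.04 over all genes. With each array centred on its median, 19 genes were higher in place of 29, and the list's median was 0.41. The higher genes included 10 of 23 of complex I, 2 of 4 of complex II, 5 of 6 of complex III, 3 of 8 of complex IV and 8 of 12 of ATP synthase. Sdha, the flavoprotein of complex II that also serves the citric acid cycle, had 17643 to 22135 (median 18362) with EGF, against 7456 to 10743 (median 8651) with PDGF-AA (1.12 ± 0.11, adjusted p = 6.01e-06). Cycs, the somatic cytochrome c, had 37054 to 44030.4 (median 38831) with EGF, against 21386 to 25407 (median 24044) with PDGF-AA (0.72 ± 0.08, adjusted p = 1.27e-05). Ndufa10 of complex I had 10484 to 12682 (median 11600.4) with EGF, against 5759 to 8676 (median 6756) with PDGF-AA (0.74 ± 0.11, adjusted p = 0.000176). The 3 genes had no overlapping samples. Ndufa10 did not pass with the mean of its probe sets (adjusted p = 0.116). Uqcrfs1, the iron-sulfur protein of complex III, gave 0.84 ± 0.16, adjusted p = 0.00142. Of 35 measured cytosolic ribosomal proteins, 0 were higher and 1 lower, with a median of −0.11. The lower one was Rpl14 (−0.49 ± 0.15, adjusted p = 0.0317), which lost its call without EGF replicate 3, 4, 5 or 6 or PDGF-AA replicate 1, 2 or 5 (adjusted p up to 0.0666) and with quantile normalization, median centring or no filter (adjusted p up to 0.0771).

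**Figure D4:**
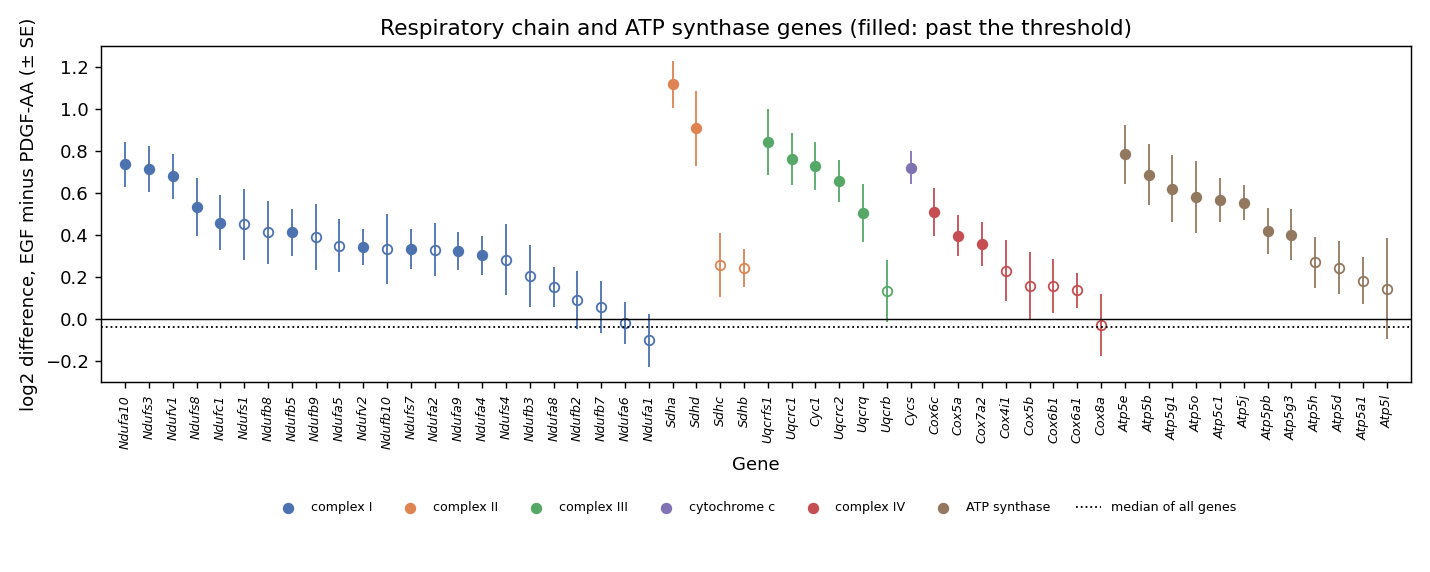
Log2 difference, EGF minus PDGF-AA (y axis), with its standard error for each of the 54 measured genes of the respiratory chain and ATP synthase, coloured by complex, with filled points for the 29 past the threshold and a dotted line at the median of all genes. Differences run from −0.10 for Ndufa1 to 1.12 for Sdha, and all measured members of complex II, complex III and ATP synthase lie above 0.

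The promoters of both groups were searched for the palindrome TGACGTCA, the cAMP response element bound by CREB-family factors, which is known from granin genes and from cytochrome c. In RefSeq windows of 250 bases before the start site (GRCm38.p6), 281 of the 9501 tested genes with a promoter sequence held these letters (2.96%), against 3 of 14 granule genes (21.4%) and 4 of 43 respiratory chain genes (9.30%). Among all genes higher with EGF the share was 2.86%, and among all lower ones 3.37%. A match is a description of these letters only. The same windows were also searched for the motif of the factor NRF1 and for the metal response element described below. The NRF1 motif was held by 7 of 43 respiratory chain genes (16.3%) and 2 of 14 granule genes (14.3%), against 8.94% of all tested genes. The metal response element was held by 10 of 43 (23.3%) and 5 of 14 (35.7%), against 34.1%. The sequences below are those of the granule and respiratory genes that hold the cAMP response element and passed the test. They run 5′ to 3′ on the gene's strand, with the element in capitals. Sst and Ndufb2, which did not pass, also hold it and are not shown. Chgb and Scg2 were lower with EGF, and Cycs, Ndufa10 and Uqcrfs1 higher. The windows lie at chr2:132781392-132781641 (plus strand, Chgb), chr1:79440027-79440276 (minus, Scg2), chr6:50566570-50566819 (minus, Cycs), chr1:92473759-92474008 (minus, Ndufa10) and chr13:30545317-30545566 (minus, Uqcrfs1).
Chgb: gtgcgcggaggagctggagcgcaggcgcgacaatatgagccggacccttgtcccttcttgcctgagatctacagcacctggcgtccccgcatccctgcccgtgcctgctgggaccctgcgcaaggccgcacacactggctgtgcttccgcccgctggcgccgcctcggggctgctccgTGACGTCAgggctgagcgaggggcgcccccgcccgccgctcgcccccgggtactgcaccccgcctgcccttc
Scg2: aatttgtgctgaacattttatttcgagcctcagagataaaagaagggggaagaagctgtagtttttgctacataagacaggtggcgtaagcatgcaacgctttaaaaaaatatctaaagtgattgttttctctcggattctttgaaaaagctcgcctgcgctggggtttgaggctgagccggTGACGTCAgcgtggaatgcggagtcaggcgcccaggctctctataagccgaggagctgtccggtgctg
Cycs: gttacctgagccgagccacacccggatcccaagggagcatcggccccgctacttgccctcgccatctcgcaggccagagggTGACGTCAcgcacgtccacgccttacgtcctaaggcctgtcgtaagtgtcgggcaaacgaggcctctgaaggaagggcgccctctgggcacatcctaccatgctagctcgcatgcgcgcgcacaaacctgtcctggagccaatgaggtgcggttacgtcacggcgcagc
Ndufa10: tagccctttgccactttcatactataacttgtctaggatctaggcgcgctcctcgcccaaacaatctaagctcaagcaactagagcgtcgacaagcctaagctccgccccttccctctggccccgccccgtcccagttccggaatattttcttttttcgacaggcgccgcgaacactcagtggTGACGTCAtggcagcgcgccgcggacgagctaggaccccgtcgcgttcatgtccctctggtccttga
Uqcrfs1: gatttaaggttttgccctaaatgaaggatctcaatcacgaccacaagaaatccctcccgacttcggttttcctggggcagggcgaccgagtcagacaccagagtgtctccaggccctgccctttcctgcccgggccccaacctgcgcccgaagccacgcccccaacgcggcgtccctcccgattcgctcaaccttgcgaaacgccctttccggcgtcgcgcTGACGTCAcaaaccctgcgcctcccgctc

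Most measured genes of fatty acid oxidation rose as well. Of the 7 measured enzymes of mitochondrial β-oxidation on the list of fatty acid genes, 6 were higher with EGF. Acadl, the long-chain acyl-CoA dehydrogenase, had 8941 to 11912 (median 11215) with EGF, against 3439.9 to 4658 (median 3679) with PDGF-AA (1.48 ± 0.11, adjusted p = 3.24e-07). Acadm and Acadvl, which act on medium and very long chains, gave 0.93 ± 0.13, adjusted p = 9.18e-05 and 0.91 ± 0.11, adjusted p = 2.28e-05. Hadhb, Decr1 and Echs1 gave 0.97 ± 0.15, 0.53 ± 0.13 and 0.51 ± 0.13, and Hadha did not pass (0.34 ± 0.17, adjusted p = 0.208). Echs1 lost its call with all 15 samples in the fit (adjusted p = 0.104). Of 11 enzymes of fatty acid synthesis, desaturation and elongation, 1 was higher (Elovl5, 0.47) and 2 were lower (Elovl4, −0.71, and Elovl6, −0.47). Elovl6 lost its call with median centring (adjusted p = 0.0531), and another of its probe sets gave 0.80, with an adjusted p of 0.284 among all probe sets. Fasn, fatty acid synthase, gave −0.37 ± 0.14, adjusted p = 0.0785. It passed as lower without PDGF-AA replicate 1 (adjusted p = 0.0483) and with each chip tested alone (adjusted p = 0.0494). Fabp3, the fatty acid carrier first known from heart muscle, had 391 to 657 (median 577) with EGF, against 949 to 1494 (median 1135) with PDGF-AA (−1.08 ± 0.20, adjusted p = 0.00141). Over the whole list, 10 of 30 genes were higher and 3 lower (5 lower without PDGF-AA replicate 1). Among all genes tested 8.68% were higher and 9.03% lower, so the lower count was near that share. Among 21 sterol synthesis genes, 1 rose, which is under the share over all genes, and 4 fell. The 1 that rose was the regulator Srebf1 (0.76 ± 0.15, adjusted p = 0.00208). Of those that fell, the enzymes Idi1 and Msmo1 gave −0.47 ± 0.10, adjusted p = 0.00404 and −0.65 ± 0.15, adjusted p = 0.00585. The enzyme Cyp51 (−0.44 ± 0.12, adjusted p = 0.0186) lost its call with median centring or the mean of its probe sets (adjusted p up to 0.0851). The regulator Srebf2 (−0.46 ± 0.12, adjusted p = 0.0171) lost it with median centring or the mean of its probe sets (adjusted p up to 0.523).

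Glycolysis and hypoxia genes split evenly, with 4 higher and 4 lower of 25 measured (31 listed), beside 8.68% higher and 9.03% lower over all genes tested. Eno2, the neuronal enolase, had 714 to 1472 (median 1099.6) with EGF, against 2191 to 3269 (median 2668) with PDGF-AA (−1.32 ± 0.18, adjusted p = 0.000124), and the glucose transporter Slc2a3, also known from neurons, gave −1.0 ± 0.14, adjusted p = 0.000148. Pfkl, a phosphofructokinase, gave −1.19 ± 0.18, adjusted p = 0.000231. Aldoc, the aldolase of astrocytes, rose (0.98 ± 0.13, adjusted p = 8.26e-05), as did the lactate dehydrogenase chain Ldhb (0.92 ± 0.10, adjusted p = 1.82e-05). Pgk1, Ldha and Tpi1, which most cells share, gave −0.08 ± 0.15, −0.10 ± 0.19 and 0.16 ± 0.12. The hypoxia-induced genes Bnip3 and Adm moved apart, at −1.07 ± 0.10, adjusted p = 5.73e-06 and 1.79 ± 0.27, adjusted p = 0.000236.

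Genes of glutathione use and detoxification were higher with EGF in 11 of 23 measured (33 listed) and lower in 0, with a median of 0.30. The glutathione transferase Gsta4 had 1585 to 2912 (median 2102) with EGF, against 90.2 to 239 (median 150.1) with PDGF-AA (3.39 ± 0.23, adjusted p = 1.50e-07). The microsomal transferase Mgst1 had 1863 to 2254 (median 2068) with EGF, against 284 to 588 (median 334) with PDGF-AA (2.33 ± 0.19, adjusted p = 1.12e-06). Gstm1, an abundant transferase of astrocytes, had 6347 to 8485 (median 7098) with EGF, against 1663 to 2928 (median 2142) with PDGF-AA (1.72 ± 0.16, adjusted p = 2.51e-06). The groups did not overlap for any of the 3. Gstt1 (2.61), the peroxidase Gpx8 (2.74), glutathione reductase Gsr (1.07) and mitochondrial superoxide dismutase Sod2 (0.61) rose with them. The shift was uneven within families, since Gstm2, Gstm5 and Gsto1 gave −0.45 ± 0.51, −0.06 ± 0.12 and −0.05 ± 0.12 and did not pass. Cytosolic Sod1 and the peroxidases Gpx1 and Gpx4 likewise gave 0.003 ± 0.15, −0.11 ± 0.17 and 0.07 ± 0.18.

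Metallothioneins, small cysteine-rich proteins that bind zinc and copper, were higher with EGF in 2 of 3 measured genes. Mt3 had signals of 5932 to 12523 (median 7780.0) with EGF, against 453 to 1032 (median 706) with PDGF-AA (3.44 ± 0.21, adjusted p = 6.96e-08). Mt2 had 3787 to 9555 (median 7039) with EGF, against 1608 to 2588 (median 2316) with PDGF-AA (1.60 ± 0.20, adjusted p = 4.69e-05). Mt1 had 2348 to 26138 (median 16059.8) with EGF, against 2659 to 8788 (median 6446) with PDGF-AA and did not pass (1.14 ± 0.48, adjusted p = 0.125). The EGF samples of Mt1 spread over more than 10-fold and covered the PDGF-AA range. Without EGF replicate 4, Mt1 passed as higher (adjusted p = 0.00165). It also did so with the fluidics group as a block (adjusted p = 0.0311) or the replicate number as a block (adjusted p = 0.00487). The promoters of the 3 genes, which lie near each other on chromosome 8, are shown because Mt1 and Mt2 are the textbook targets of the metal response element, searched here as TGCACNC or TGCGCNC on both strands (N is any base). These letters were found in the windows of Mt2 and Mt1 and not in that of Mt3, and 34.1% of all tested genes with a promoter sequence held them, so that a match is common. Capitals mark the matches, and the windows lie on the plus strand at chr8:94152357-94152606 (Mt3), chr8:94172368-94172617 (Mt2) and chr8:94178839-94179088 (Mt1).
Mt3: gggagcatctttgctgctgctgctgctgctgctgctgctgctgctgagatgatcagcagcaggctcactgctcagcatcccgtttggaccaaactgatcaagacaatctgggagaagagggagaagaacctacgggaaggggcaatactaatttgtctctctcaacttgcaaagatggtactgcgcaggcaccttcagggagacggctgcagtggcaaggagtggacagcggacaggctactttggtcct
Mt2: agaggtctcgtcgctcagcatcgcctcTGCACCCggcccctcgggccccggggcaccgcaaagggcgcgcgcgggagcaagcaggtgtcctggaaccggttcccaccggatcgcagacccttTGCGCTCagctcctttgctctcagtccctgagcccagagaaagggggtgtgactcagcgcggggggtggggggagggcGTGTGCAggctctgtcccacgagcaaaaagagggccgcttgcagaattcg
Mt1: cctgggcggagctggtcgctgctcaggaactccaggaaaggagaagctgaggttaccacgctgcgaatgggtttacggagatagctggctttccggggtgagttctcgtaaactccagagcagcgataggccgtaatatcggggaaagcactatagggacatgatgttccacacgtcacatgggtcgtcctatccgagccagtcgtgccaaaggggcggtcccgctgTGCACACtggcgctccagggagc

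The receptors and ligands of the growth factors themselves did not share one direction. Egfr, the receptor of EGF, had no single answer over its probe sets. The one that represents it in the test had 2434 to 4030.4 (median 3422) with EGF, against 2561 to 6461 (median 4371) with PDGF-AA and did not pass (−0.32 ± 0.21, adjusted p = 0.339). A second on the same chip averaged 1620 ± 288 with EGF and 181 ± 202 with PDGF-AA (3.24 ± 0.44, adjusted p = 0.000151 among all 22825 probe sets, of which 12.6% passed), and one on the other chip averaged 16677 ± 2703 with EGF and 1770 ± 457 with PDGF-AA (3.18 ± 0.17, adjusted p = 1.99e-08; SD, n = 6 each). Another 2 past the filter gave 0.06 and −0.42 and did not pass. Erbb3 did not pass (−0.45 ± 0.19, adjusted p = 0.126), except without PDGF-AA replicate 6 (adjusted p = 0.0419), and Erbb2 and Erbb4 stayed under the filter. Among ligands of Egfr, Hbegf had 3266 to 5399 (median 4719.9) with EGF, against 1211 to 1941 (median 1703) with PDGF-AA (1.41 ± 0.15, adjusted p = 9.87e-06), and Tgfa had 491 to 1286 (median 908) with EGF, against 2284 to 3746 (median 3097) with PDGF-AA (−1.73 ± 0.24, adjusted p = 0.000125), though another probe set of Tgfa gave 0.02. The samples of the 2 groups did not overlap for either ligand. Btc and Nrg2 did not pass (−0.25 ± 0.30 and 0.02 ± 0.15), and Egf itself stayed under the filter. Of 11 measured adaptors and inhibitors of the receptor, Lrig1 rose. The inhibitor Socs5 (−1.23 ± 0.13, adjusted p = 1.09e-05) and the adaptors Gab1 (−0.87 ± 0.10, adjusted p = 1.44e-05) and Grb2 (−0.48 ± 0.16, adjusted p = 0.0448) fell. Grb2 lost its call without EGF replicate 1, 2, 3 or 4 or PDGF-AA replicate 1, 2, 3, 4, 5 or 6 (adjusted p up to 0.0949) and with quantile normalization, median centring, no filter, the mean of its probe sets, all 15 samples in the fit, the replicate block or the fluidics run as a block (adjusted p up to 0.13). Cbl (0.61), Cblb (0.13), Errfi1 (−0.33) and Lrig2 (0.21), which restrain the receptor, and Sos1 (−0.49), Shc1 (0.50) and Ptpn11 (−0.003), which carry its signal, did not pass. Cbl passed without EGF replicate 1 (adjusted p = 0.0271), and a brighter probe set of it passed among all probe sets (0.48 ± 0.11, adjusted p = 0.00706). Sos1 passed as lower without EGF replicate 4 (adjusted p = 0.0337) and with the replicate number as a block (adjusted p = 0.0134). On the PDGF side Pdgfa, the ligand chain present in PDGF-AA, was lower with EGF, at 1171 to 1475 (median 1285) with EGF, against 1637 to 3072 (median 2222) with PDGF-AA (−0.70 ± 0.16, adjusted p = 0.00719). Pdgfb, Pdgfc and Pdgfrl gave −0.02 ± 0.39, 0.12 ± 0.21 and 0.39 ± 0.38 and did not pass, and Pdgfd and Pdgfrb stayed under the filter.

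Genes that respond to ERK signalling went both ways, with 8 higher and 6 lower among 31 measured, beside 8.68% higher and 9.03% lower over all genes tested. The feedback phosphatase Dusp6 had 5426 to 8176 (median 7122) with EGF, against 1417 to 2994 (median 2675) with PDGF-AA (1.56 ± 0.17, adjusted p = 1.69e-05). The ETS factor Etv5 (1.15 ± 0.15, adjusted p = 7.43e-05), Ier3 (1.65 ± 0.22, adjusted p = 7.43e-05) and the plasminogen activator Plat (1.41 ± 0.14, adjusted p = 6.51e-06) rose too. The AP-1 factors Jun (−0.75 ± 0.09, adjusted p = 3.99e-05) and Fos (−0.74 ± 0.12, adjusted p = 0.000415) and Phlda1 (−1.35 ± 0.14, adjusted p = 9.30e-06) were lower. Of the FGF receptors, Fgfr3 (2.01 ± 0.24, adjusted p = 2.90e-05) and Fgfr2 (0.84 ± 0.15, adjusted p = 0.00119) rose and Fgfr1 did not pass (0.37 ± 0.33, adjusted p = 0.521). Fgfr2 lost its call with the mean of its probe sets (adjusted p = 0.116), and another of its probe sets gave −0.46. Igfbp3, another binding protein, had 3829 to 7585 (median 6531) with EGF, against 866 to 1477 (median 1044) with PDGF-AA (2.46 ± 0.18, adjusted p = 3.85e-07), while Igf1 and Irs1 did not pass (−0.37 ± 0.20 and 0.22 ± 0.12). Among neurotrophin receptors, Ntrk2, the BDNF receptor, had 13365 to 16525 (median 14237) with EGF, against 5758 to 7745 (median 6649) with PDGF-AA (1.13 ± 0.09, adjusted p = 1.26e-06). A second probe set of Ntrk2 passed at 0.37 (adjusted p = 0.0121), and another 4 gave −0.84 to −0.20, none past the threshold among all probe sets (adjusted p from 0.0517 to 0.528). Ntrk3, the receptor of neurotrophin-3, gave −0.63 ± 0.15, adjusted p = 0.0105.

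The Hedgehog, Notch and Wnt lists each held more higher than lower genes, beside 8.68% higher and 9.03% lower over all genes tested. The lower counts of the Notch and Wnt lists were near or under that share. In the Hedgehog pathway 6 of 11 genes were higher and 0 lower. The ligand Dhh had 3465 to 6071 (median 5127) with EGF, against 506 to 1345 (median 969) with PDGF-AA (2.34 ± 0.24, adjusted p = 8.52e-06), the co-receptors Gas1 and Cdon gave 1.48 ± 0.23 and 1.28 ± 0.15, the transducer Smo 0.78 ± 0.15 and the effector Gli3 0.99 ± 0.14. Smo lost its call with the mean of its probe sets (adjusted p = 0.185). Shh, the ligand of the ventral midline, gave −0.48 ± 0.37, adjusted p = 0.434. In the Notch pathway 6 of 22 genes were higher and 2 lower (1 lower without EGF replicate 2, 3, 5 or 6 or PDGF-AA replicate 1, 3, 4, 5 or 6). Notch2 had 1680.5 to 3649 (median 2288) with EGF, against 308 to 646 (median 508) with PDGF-AA (2.21 ± 0.23, adjusted p = 7.56e-06). The targets Hes1 (1.0 ± 0.20) and Nrarp (0.64 ± 0.15) and the receptor Notch3 (1.03 ± 0.23) rose with it, the inhibitory ligand Dll3 fell (−0.58 ± 0.15, adjusted p = 0.0117) and Notch1 did not pass (0.34 ± 0.22, adjusted p = 0.342). Of 28 Wnt pathway genes, 6 were higher, among them the receptor Fzd5 (1.89 ± 0.18, adjusted p = 3.86e-06) and the ligands Wnt5a (1.79 ± 0.27, adjusted p = 0.000225) and Wnt7a (1.10 ± 0.17, adjusted p = 0.000387). The 1 that fell was the nuclear factor Lef1 (−0.67 ± 0.21, adjusted p = 0.0374), which lost its call without EGF replicate 1, 2 or 6 or PDGF-AA replicate 1, 2, 3, 4 or 5 (adjusted p up to 0.0797) and with median centring, no filter, each chip tested alone or all 15 samples in the fit (adjusted p up to 0.106). In the BMP and TGF-β pathway the receptor Bmpr1b had 4095 to 6256 (median 5591) with EGF, against 53.6 to 1587 (median 554) with PDGF-AA (3.15 ± 0.41, adjusted p = 7.02e-05), Smad3 rose (1.17 ± 0.12, adjusted p = 6.80e-06), and the ligands Bmp4 (−0.91 ± 0.27, adjusted p = 0.0288) and Bmp7 (−0.91 ± 0.26, adjusted p = 0.023) fell. Bmp4 lost its call without EGF replicate 4 or 5 or PDGF-AA replicate 2 or 3 (adjusted p up to 0.0654) and with no filter or all 15 samples in the fit (adjusted p up to 0.0699), and Bmp7 without EGF replicate 1 (adjusted p = 0.0514). Of the Id genes, which restrain bHLH factors, Id3 had 3339 to 4173 (median 3851) with EGF, against 769 to 1159 (median 1019.7) with PDGF-AA (1.92 ± 0.13, adjusted p = 1.85e-07), Id2 fell (−1.10 ± 0.22, adjusted p = 0.00281), and Id1 (0.62 ± 0.30, adjusted p = 0.183) and Id4 (−0.53 ± 0.18, adjusted p = 0.057) did not pass. Id4 passed as lower without EGF replicate 4 or PDGF-AA replicate 2 or 3 (adjusted p from 0.0291 to 0.0456). It also passed with array weights, each chip tested alone, a filter at the 75th percentile or the replicate number as a block (adjusted p from 0.019 to 0.0378).

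Transcription factors that mark positions in the forebrain differed in both directions. The counts below stand beside 8.68% higher and 9.03% lower over all genes tested. Of 15 measured genes listed for the lateral ganglionic eminence and striatum, 5 were higher and 2 lower with EGF, the lower ones being Tac1 and Isl1. With the stricter filter, at the 75th percentile, 7 were measured and 0 were lower. Meis2 had 3119 to 4581 (median 4114) with EGF, against 851 to 1679 (median 1451) with PDGF-AA (1.60 ± 0.18, adjusted p = 1.82e-05), and Meis1 (2.51), Foxp1 (1.35), Foxp2 (1.09) and Six3 (0.80) were higher as well. Of 13 genes of the dorsal telencephalon, 4 were higher and 2 lower. Emx2 had 2072 to 4440.2 (median 3194) with EGF, against 234 to 1933 (median 565) with PDGF-AA (2.26 ± 0.34, adjusted p = 0.000224). Gli3, Lhx2 (1.30) and Dmrta2 (1.30) rose too, while Dmrta1 (−1.03) and Cux2 (−0.97) fell. Lhx2 lost its call without EGF replicate 1, 2, 3, 4 or 6 or PDGF-AA replicate 2, 5 or 6 (adjusted p up to 0.0786) and with no filter, all 15 samples in the fit or array weights (adjusted p up to 0.0596), and Cux2 with the mean of its probe sets (adjusted p = 0.443). Of 10 genes listed for the septum and ventral midline, 2 were higher (Otx1 and Six3) and 3 lower (Zic1, Zic4 and Nr2f2). The stricter filter left 1 of the 10, which was higher. Otx1, which is also listed for the whole forebrain, had 877 to 1877 (median 1497) with EGF, against 64.9 to 204 (median 114) with PDGF-AA (2.79 ± 0.24, adjusted p = 1.94e-06). Zic1 had 94.7 to 535 (median 259) with EGF, against 1450.0 to 3979 (median 2763) with PDGF-AA (−3.22 ± 0.35, adjusted p = 1.47e-05), and Zic4 gave −1.10 ± 0.30, adjusted p = 0.0191. Zic4 lost its call with all 15 samples in the fit (adjusted p = 0.0893). Of the list for the medial ganglionic eminence and entopeduncular area, 3 of 7 measured genes were lower with EGF and 0 higher (17 listed). With the stricter filter 4 were measured and 0 were lower. Gsx1, a factor of dividing ventral precursors, had 85.7 to 534 (median 114) with EGF, against 469 to 1374 (median 949) with PDGF-AA (−2.20 ± 0.38, adjusted p = 0.000784). Its EGF signals all lay below the chip's median. Lhx6 of cortical interneurons (−1.42 ± 0.29, adjusted p = 0.00284) and Isl1 of striatal neurons (−1.66 ± 0.47, adjusted p = 0.0217) fell with it. The samples overlapped for all 3. Of 18 genes of the GABAergic lineage 7 were lower and 0 higher. With the stricter filter 6 were measured and 3 were lower. Gad1, which makes GABA, had 2046 to 5824 (median 2521) with EGF, against 4662 to 13368 (median 8904) with PDGF-AA (−1.50 ± 0.27, adjusted p = 0.00127), and the vesicle transporter Slc32a1 (−0.94 ± 0.22, adjusted p = 0.00741) and the orphan receptor Nr2f2 (−0.95 ± 0.19, adjusted p = 0.00259) were lower too. Otp (−1.11 ± 0.20, adjusted p = 0.00117) and Irx1 (−1.13 ± 0.20, adjusted p = 0.00101), listed for the diencephalon and hindbrain, also fell. In the nuclear factor I family Nfix had 24009.5 to 29429 (median 26993) with EGF, against 11092 to 16664 (median 13218) with PDGF-AA (0.99 ± 0.11, adjusted p = 2.02e-05), and Nfia (1.19) and Nfib (0.63) rose with it. Nfib lost its call with the mean of its probe sets (adjusted p = 0.687), and another of its probe sets gave −0.69.

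**Figure D5:**
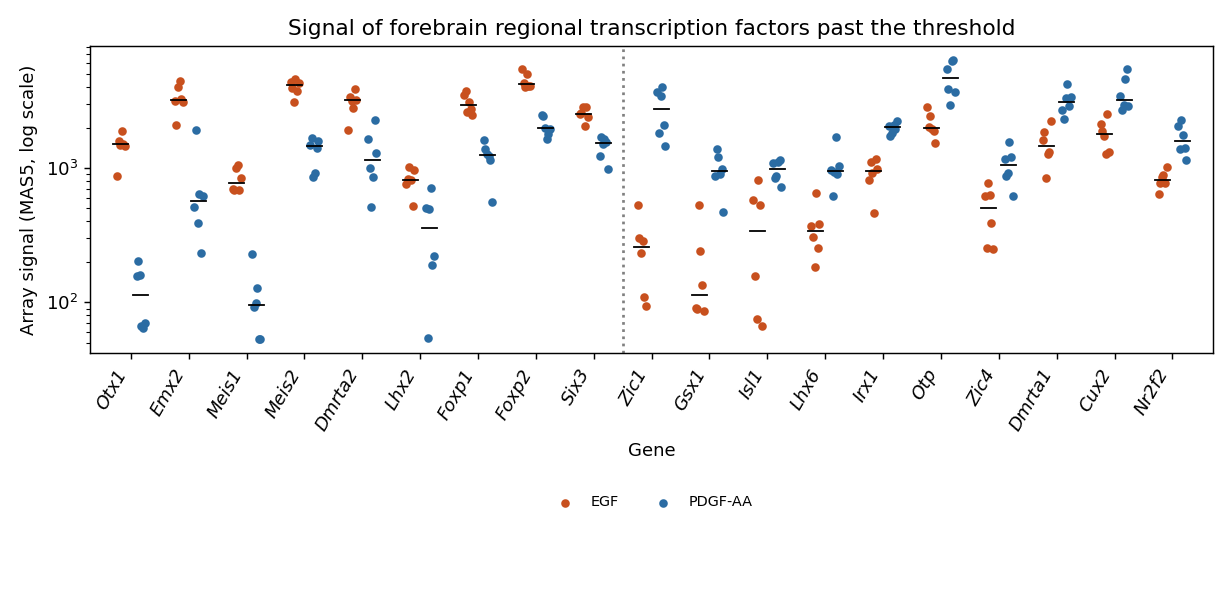
Signal of each RNA sample (points, log axis) and its median (black lines) for regional transcription factors past the threshold, EGF in orange and PDGF-AA in blue beside it, with the 9 higher genes left of the dotted line and the 10 lower genes right of it. Otx1 (EGF 877 to 1877, PDGF-AA 64.9 to 204) and Zic1 (EGF 94.7 to 535, PDGF-AA 1450.0 to 3979) have the largest log2 differences, whereas the samples of Dmrta2, Lhx2, Gsx1, Isl1, Lhx6 and Zic4 overlap.

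Some genes of cell division were higher with EGF, by small amounts. Of 38 S phase genes 12 were higher and 0 lower, with a median of 0.36 (0.18 to 0.47 within the fluidics groups), and of 39 genes of G2 and mitosis 12 were higher and 0 lower (median 0.33, 0.15 to 0.52 within the fluidics groups). The ribonucleotide reductase subunit Rrm2 had 30361 to 37278 (median 35679.8) with EGF, against 16732 to 22597 (median 20591) with PDGF-AA (0.77 ± 0.09, adjusted p = 4.43e-05), and the chromosomal passenger protein Cdca8 had 80399 to 101909 (median 91053) with EGF, against 42317 to 64106 (median 52503) with PDGF-AA (0.81 ± 0.10, adjusted p = 6.78e-05). Mki67, the usual marker of dividing cells, gave 0.51 ± 0.15, adjusted p = 0.0241 and lost its call without EGF replicate 3 or 5 or PDGF-AA replicate 2 (adjusted p up to 0.0588). Larger differences were found among the regulators of G1. Cdk6, a kinase that D cyclins activate, had 6330.3 to 9169 (median 8386) with EGF, against 587 to 1984 (median 1131) with PDGF-AA (2.74 ± 0.24, adjusted p = 1.86e-06). Ccnd2, cyclin D2, had 27811 to 40585 (median 31456) with EGF, against 7147 to 11555 (median 9424) with PDGF-AA (1.79 ± 0.13, adjusted p = 2.84e-07). Ccnd1 did not pass (0.19 ± 0.14, adjusted p = 0.433), although another of its probe sets passed at 0.98 (adjusted p = 0.0123 among all probe sets), Ccnd3 fell (−0.67 ± 0.18, adjusted p = 0.0164), and of the inhibitors Cdkn2b rose (1.18 ± 0.17, adjusted p = 0.000204) and Cdkn1c fell (−0.76 ± 0.17, adjusted p = 0.00485).

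Adhesion and matrix genes changed one by one. Of 9 measured integrin chains, 4 were higher and 3 lower, with 2 higher without PDGF-AA replicate 5 and 1 lower without EGF replicate 3 or 4. Itga6 had 4178 to 5786 (median 4431) with EGF, against 34.9 to 725 (median 255) with PDGF-AA (4.0 ± 0.41, adjusted p = 7.77e-06). Itgb5 was also higher (1.83 ± 0.20, adjusted p = 1.08e-05), and Itga8 was lower (−1.57 ± 0.23, adjusted p = 0.000222). The heparan sulfate carrier Sdc4 had 6573 to 8012 (median 7409.8) with EGF, against 406 to 1146 (median 872) with PDGF-AA (3.15 ± 0.19, adjusted p = 6.96e-08), whereas its relative Sdc3 fell (−0.79 ± 0.12, adjusted p = 0.000206). The hyaluronan receptor Cd44 rose (1.56 ± 0.26, adjusted p = 0.000537), and Vcan (−1.19 ± 0.25, adjusted p = 0.00396) and Tnr (−1.12 ± 0.17, adjusted p = 0.000241), which bind to the hyaluronan matrix, fell. Of 39 guidance genes, 4 were higher and 9 lower, beside 8.68% higher and 9.03% lower among all genes tested. The count of higher ones was thus near the share over all genes. Without EGF replicate 4 or 5 or PDGF-AA replicate 2, 2 were higher. The lower ones numbered 5 without EGF replicate 6 or PDGF-AA replicate 1 and 4 without PDGF-AA replicate 4 or 5. Netrin-4 (Ntn4) had 9559 to 14360.3 (median 12377) with EGF, against 2119.6 to 3931 (median 2871) with PDGF-AA (2.04 ± 0.14, adjusted p = 1.50e-07). Among netrin receptors Unc5b rose (2.51 ± 0.34, adjusted p = 0.00011) and Unc5c fell (−1.50 ± 0.14, adjusted p = 2.53e-06).

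Imprinted genes were lower with EGF in 8 of 18 measured (28 listed), with a median of −0.50. Ndn, a growth suppressor of postmitotic neurons, had 24862 to 41974 (median 35069.7) with EGF, against 72999.9 to 109426 (median 88183) with PDGF-AA (−1.45 ± 0.14, adjusted p = 5.37e-06). Nnat (−1.33 ± 0.17), Nap1l5 (−1.56 ± 0.16), Magel2 (−1.10 ± 0.20), Peg3 (−0.65 ± 0.12) and the noncoding RNAs Meg3 (−0.97 ± 0.19) and Rian (−1.60 ± 0.31) fell with it. Meg3 and Rian are expressed from the maternal copy, and Ndn, Nnat, Nap1l5, Magel2 and Peg3 from the paternal copy. Mest was the 1 that rose, at 6015 to 10191 (median 7703) with EGF, against 1412 to 2474 (median 2205) with PDGF-AA (1.89 ± 0.16, adjusted p = 1.52e-06). Among the 9 measured housekeeping genes, Sdha was higher and Hprt lower (−0.65 ± 0.15, adjusted p = 0.00675), while Actb, B2m, Tfrc, Polr2a, Pgk1, Gusb and Ywhaz did not pass, with differences of −0.18 to 0.29. In the lists of other cell types, 0 of the 4 microglial, 0 of the 2 meningeal and 0 of the 1 red blood cell genes passed the test. Of the 6 endothelial and pericyte genes the 1 that passed was Cspg4, which oligodendrocyte progenitors share, and of the 6 choroid plexus and ependyma genes it was Kcnj13 (−0.76 ± 0.20, adjusted p = 0.0149), which lost its call with each chip tested alone (adjusted p = 0.0551). Without PDGF-AA replicate 3, 1 of these 6 was higher.

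Of the 239 genes named above and in the closing section that passed the test, 111 had further probe sets past the filter. All further probe sets had the same sign for 97 of them, and for 70 at least 1 passed on its own among all probe sets. A further probe set of opposite sign was present for 14 genes, and 0 of these probe sets passed. Beside those given above they belonged to Car3 (−0.01), Lrig1 (−0.02), Kcna2 (−0.24), Plat (−0.52), Tac1 (0.23), Vcan (0.48) and Wnt7a (−0.26). The same sign did not always mean a similar size. Among the leading genes, further probe sets gave much smaller differences for Ctsc, Sox10, Plcd4 (0.42), Ccbe1 (0.43), Ramp1 (0.44 to 0.77), AW551984 (−0.57 to −0.45) and Col9a1 (−0.10). Those of Lgals1 (3.86), Htra1 (3.82) and Itga6 (3.52) were close to the gene's value.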

How the data were processed

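Each RNA sample was hybridised, without amplification of the RNA, as biotinylated cRNA to a pair of Affymetrix chips, MOE430A and MOE430B, per the labels' protocols. The deposited values are MAS5 signal intensities on a linear scale, per the submitters' processing notes (version not given in the sources used here). From the values, the trimmed mean of each array is 1500.2 to 1500.7, so the authors had scaled all arrays to one target. Depth has no counterpart on arrays, and their number limits the precision. Probe sets were named through the platform annotation updated with RefSeq: of 22690 and 22575 probe sets, 20380 and 14661 had 1 gene symbol, and those with several or none were not named.

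A pseudocount was added before log2, the 10th percentile of each chip (52.8 and 110.0). Probe sets below the array's median in more than 6 of 12 samples were left out (22825 kept), and each gene was represented by 1 probe set, from MOE430A first and then by the highest mean, since both chips were tested together. The 12 samples were fitted with limma 3.58.1 (R 4.3.3), with a trend in the variance and Benjamini-Hochberg adjustment at 0.05 over 11739 genes. The procedure was tested on simulated data for this comparison, where it recovered 73 of 100 genes changed 2-fold and 99 of 100 changed 4-fold, with 9 false calls among 11539. The simulated data held 100 changed genes of each size beside 11539 unchanged ones, whereas 17.7% of the genes tested here passed. These rates need not hold at that larger share.

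Lists, members and tests were chosen with earlier results of these data known. Lists are described by counts and medians, without a test. Named genes are the 20 largest differences each way among genes whose groups do not overlap and whose higher group reaches the chip's median, the next 10 each way in no list, up to 8 members per list with the smallest adjusted p, and all measured members of the ErbB, PDGF, Id, metallothionein and housekeeping lists. Olig1, Tubb3, Pnoc, Nts, Uqcrfs1, Echs1, Elovl5, Mki67, Vcan and Slc6a11, and the promoters shown, were chosen after their values were seen. Alternatives changed the pseudocount, scaling, filter, probe set choice, chips, samples, blocks and array weights. The 3 samples with PDGF and NT-3 were not used here except in 1 alternative. Fluidics groups were inferred from header times.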

Additional observations from a re-analysis of the deposited data

Results flagged for a closer look

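A sample stood apart from the other 5 of its group in 43 of 592 groups of 6 values, 7.26%. The rule was a gap to the nearest other value of over 0.625 of the group's range. Independent values with a normal spread pass this cut-off in about 1 of 20 groups. Most values here are linear signals of related genes, many named for their differences, so 7.26% cannot be set against that rate. The values are signals of genes named in the text, each with the nearest value of its group, and no explanation was tested.

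EGF replicate 1 was the lowest for Gria3 (147, next 567). EGF replicate 2 was the highest for Olig1 (52776, next 42948), Pla2g7 (2827, next 1955), Lnx1 (3952, next 2826), Mbp (35002, next 25009), Itga8 (2995, next 1391) and Peg3 (12906, next 10168) and the lowest for Anxa5 (2254, next 4369). EGF replicate 3 was the highest for Gsx1 (534, next 240.0). EGF replicate 4 was the highest for Car2 (12513, next 6939), Dcx (7564, next 3629), Mapt (6156, next 3677), Stx1a (4261, next 2929), Gria2 (3255, next 2142), Idi1 (7633, next 6081), Gad1 (5824, next 3457), Meg3 (7380.3, next 4885) and Rian (2877, next 1526) and the lowest for Ywhaz (15978, next 21726). EGF replicate 5 was the highest for Vgf (2088, next 574), Brinp3 (676, next 226) and Shh (5788, next 2745). EGF replicate 6 was the highest for Ech1 (2482, next 1554) and Elovl6 (7831, next 6220.1) and the lowest for Lrig2 (4114, next 5036). The genes that singled out EGF replicate 4 include neuronal ones that were lower with EGF, and without this sample 17 of 32 immature neuron genes and 16 of 27 mature neuron genes were lower. This sample also had the lowest log2 3' to 5' ratio of Actb on the second chip (2.43, next 2.88).

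PDGF-AA replicate 2 was the highest for Emx2 (1933, next 643) and the lowest for Syt1 (15216, next 22343). PDGF-AA replicate 3 was the highest for Pla2g7 (56.5, next 25.9) and Gsr (2084, next 1618) and the lowest for Chga (1851, next 2701). PDGF-AA replicate 4 was the highest for Pcdh17 (11165, next 7476) and the lowest for Fgfr1 (363, next 1403). PDGF-AA replicate 5 was the highest for Myh9 (5904, next 3105) and the lowest for Fgfr3 (209.6, next 548). PDGF-AA replicate 6 was the highest for Ech1 (643, next 139.7), Ldha (46129.8, next 33371) and Hexa (10688, next 7578) and the lowest for Fbln2 (227, next 766), Ndrg2 (1517, next 2742), Hadha (579.7, next 833) and Nnat (6596, next 9561). PDGF-AA replicate 1 had the lowest log2 3' to 5' ratio of Gapdh on the second chip (3.28, next 3.80).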

How the results depend on the processing

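The 239 named genes past the threshold were followed through the settings run on more than 1 fluidics group. In all of these that measured the gene, 219 genes kept their direction and their call. The others lost the call in at least 1, as given beside them. The stricter filter left some named genes out, so their call was not tested there. Direction and call were kept in 2785 of 2819 values over the 12 other settings and in 2819 of 2868 with 1 sample left out. The other values weakened. Within single fluidics groups, with 2 samples a side, 258 of 717 values passed. Of 53 genes named with their difference that did not pass, 10 passed in some setting. The number of genes past the threshold was 1700 with median centring (912 higher, 788 lower), 2102 with the replicate number as a replicate block and 2138 with the fluidics group as a block, beside 2079. The called genes were not all the same ones. Of the 2079, 1689, 1873 and 1986 passed in the same direction in these settings, in that order. The samples were not treated as pairs, since same-numbered samples correlated at 0.01 to 0.14, over 0.1 for 1 of 6, although for 5 of 6 EGF samples the PDGF-AA sample of the same number was the best match, and the fluidics groups hold the same numbers of both. With 1 sample left out the count was 1761 to 2030, with 849 to 997 higher and 875 to 1069 lower. Within the 3 fluidics groups it was 131, 159 and 326, with 94, 116 and 180 higher and 37, 43 and 146 lower, as the fits have fewer samples.

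Within the 3 fluidics groups, beside the count over all samples, the lists had 8, 7 and 6 astrocyte genes higher (beside 14), 3, 4 and 3 radial glia genes higher (beside 12), and 4, 5 and 7 oligodendrocyte progenitor genes lower (beside 14). They had 1, 0 and 9 immature neuron genes lower (beside 17), 1, 0 and 3 mature neuron genes lower (beside 16), 1, 3 and 2 dense-core granule genes lower (beside 13), and 1, 2 and 2 oxidative phosphorylation genes higher (beside 29), 0, 0 and 1 S phase genes higher (beside 12), 0, 1 and 0 G2 and mitosis genes higher (beside 12). With median centring 19 oxidative phosphorylation genes were higher, beside 29. Of the other counts, guidance genes had 2 higher (beside 4) and sterol genes 2 lower (beside 4) with median centring, guidance genes 5 lower (beside 9) with all 15 samples in the fit, and sterol genes 7 lower (beside 4) with each chip alone. With no filter the list median was 0.93 for astrocyte genes (beside 1.10). With the stricter filter the list median was 1.71 for astrocyte genes (beside 1.10), −1.12 for oligodendrocyte progenitor genes (beside −0.90), −0.86 for immature neuron genes (beside −0.63) and −1.02 for dense-core granule genes (beside −0.80). Within fluidics group 1 the list median was 1.38 for astrocyte genes (beside 1.10), −0.50 for mature neuron genes (beside −0.72), 0.50 for oxidative phosphorylation genes (beside 0.37) and 0.15 for G2 and mitosis genes (beside 0.33). Within fluidics group 2 the list median was 0.48 for radial glia genes (beside 0.38), −1.09 for dense-core granule genes (beside −0.80) and 0.52 for G2 and mitosis genes (beside 0.33). Within fluidics group 3 the list median was 0.18 for S phase genes (beside 0.36). The other list medians of these 9 lists moved by less than the SD over samples, and no median changed sign. With 1 sample left out, the 3' to 5' differences were −0.11 to 0.094 (Actb, MOE430A), −0.27 to −0.13 (Actb, MOE430B), −0.16 to −0.06 (Gapdh, MOE430A), −0.22 to −0.085 (Gapdh, MOE430B). The cause of these shifts was not tested. Signals near the pseudocount limit the size of differences such as that of Mlc1.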

Other observations

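Some genes of lists not described above passed the test, beside 8.68% higher and 9.03% lower among all genes. Among cathepsins and other lysosomal genes, 4 of 25 measured were higher with EGF and 2 lower (1 lower without EGF replicate 2 or PDGF-AA replicate 6), with a median of 0.05. Ctsz, a cathepsin, had 509 to 1320.0 (median 1128) with EGF, against 28.1 to 583 (median 274) with PDGF-AA (1.93 ± 0.43, adjusted p = 0.0055), and the hexosaminidase chain Hexa (0.64 ± 0.15, adjusted p = 0.00631) rose with Ctsc, while the acid glucosidase Gaa fell (−0.63 ± 0.18, adjusted p = 0.0211). Transporters of amino acids and transmitters were higher in 3 and lower in 6 of the 19 measured. The glial GABA carrier Slc6a11 rose (1.91 ± 0.53, adjusted p = 0.0202), and the neuronal glutamate carrier Slc1a1 had 1405 to 2478 (median 1643) with EGF, against 4099.8 to 5709 (median 5069) with PDGF-AA (−1.38 ± 0.16, adjusted p = 2.02e-05). Annexin genes Anxa3 (2.57 ± 0.26, adjusted p = 7.20e-06) and Anxa6 (1.01 ± 0.26, adjusted p = 0.0139) were higher beside Anxa5, and of 11 annexins, galectins and S100 genes 4 rose and 1 fell.

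Genes of contraction and the cell cortex were higher in 5 of 15. Acta2, smooth muscle actin, had 5307 to 10667 (median 7664) with EGF, against 1205 to 2589 (median 2009) with PDGF-AA (1.99 ± 0.23, adjusted p = 2.13e-05), and nonmuscle myosin Myh9 gave 1.59 ± 0.30, adjusted p = 0.00141, whereas the tropomyosin Tpm1 fell (−1.08 ± 0.19, adjusted p = 0.00102). Of 22 cadherins and protocadherins 3 were higher and 4 lower. Without EGF replicate 5 or 6 or PDGF-AA replicate 1, 0 were higher, and without PDGF-AA replicate 3 or 6, 1 was. With all samples, all of the lower ones were protocadherins, led by Pcdh17 (−1.68 ± 0.20, adjusted p = 2.64e-05) and Pcdh8 (−1.22 ± 0.21, adjusted p = 0.000895). The SoxB1 factor Sox3 rose (0.75 ± 0.18, adjusted p = 0.0103), while its close relative Sox2 did not pass.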
